A study of Mus musculus with 9 samples.

Results

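RAS proteins pass signals from growth factor receptors to the RAF, MEK and ERK kinases, and active ERK switches on genes that in turn restrain the pathway. Among these feedback genes, DUSP4, DUSP5 and DUSP6 are phosphatases that remove phosphate from ERK, and Sprouty (SPRY) and SPRED proteins act further up, on RAS and RAF. ETV4 and ETV5 are ETS transcription factors whose genes are induced by ERK, so the RNA of this small set is widely read as a measure of ERK output. Nras and 9 such genes (Dusp4, Dusp5, Dusp6, Spry1, Spry2, Spry4, Spred1, Etv4 and Etv5) were looked up by symbol among the 37801 genes of the table, and all 10 were found. The question asked of them was whether ERK output was visible in whole lymph nodes that hold melanocytes with activated NRAS.

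RNA-seq of lymph nodes was carried out in 3 groups of mice with 3 libraries each. The Tyr-NrasQ61K MHCII-KO group (MHCII-KO below) carried NrasQ61K, an activated form of the RAS protein NRAS driven by the tyrosinase promoter of the melanocyte lineage, and was labelled Cre-positive and MHCII-KO. The Tyr-NrasQ61K group carried the same transgene and was labelled Cre-negative with wild-type MHC class II, and the WT group lacked both changes. The labels give the strain as FVB/NJ for WT and as an FVB/NJ cross for both NrasQ61K groups, whereas the treatment protocol calls the WT animals littermates without the transgene, and whether background differed was not tested. The identifier numbers in the labels fall in runs, and the runs of the WT libraries hold no NrasQ61K library, so run and genotype cannot be told apart in the comparisons with WT. The labels do not state the promoter of the Cre, the ages, or whether libraries came from separate mice, so the spread behind each p-value is that between libraries and may be technical. The design text of the series calls the NRAS allele inducible by Cre, whereas the treatment protocol describes a transgene under the tyrosinase promoter. The labels name nevus melanocytes as the source, whereas the paper names lymph nodes.

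Genes of B cells were abundant in every library. The FPKM (fragments mapped to a gene, scaled by its transcript length and by the depth of the library) of 10 B cell genes summed to 1087 to 2609 in MHCII-KO, 722 to 2188 in Tyr-NrasQ61K and 1368 to 2729 in WT libraries. Without Ighm, the highest of them, the sums were 376 to 544, 359 to 694 and 552 to 688 in the same groups. Melanocyte RNA was present in both NrasQ61K groups. Dct, a pigment enzyme, was at 0.847, 2.10 and 3.25 FPKM in MHCII-KO, 5.81, 4.16 and 2.77 in Tyr-NrasQ61K, and 0.0508, 0 and 0.0319 in WT libraries. Of 19 melanocyte genes, 18 without the lysosomal and phagocyte gene Gpnmb summed to 41.9 to 56.3 FPKM in MHCII-KO, 48.8 to 62.1 in Tyr-NrasQ61K and 18.1 to 27.5 in WT libraries, and 3 of the 19 were at 0 in every WT library. Tspan10 and Mfsd12 held a large part of this gap. Mean Tspan10 was 17.3 FPKM in MHCII-KO, 17.2 in Tyr-NrasQ61K and 4.10 in WT, and mean Mfsd12 was 13.4, 13.7 and 3.33. Mean Kit went the other way, at 3.26, 3.63 and 6.52 FPKM. Of the 11 melanocyte genes tested, 9 had a log2 fold change above 0 and 2 below in both NrasQ61K groups against WT. The MHC class II gene H2-Ab1 was at 271, 108 and 165 FPKM in the libraries labelled MHCII-KO, 149, 276 and 207 in Tyr-NrasQ61K and 183, 101 and 170 in WT libraries, so the label was not visible in H2-Ab1 of whole nodes. H2-Aa was at 362 to 634 FPKM in MHCII-KO, 276 to 802 in Tyr-NrasQ61K and 667 to 1091 in WT libraries. H2-Eb1 was at 360 to 444, 355 to 578 and 394 to 659 FPKM in the same groups, and Cd74 at 1276 to 1595, 1180 to 1575 and 1113 to 1772. MHCII-KO lay below WT for H2-Aa, as for 23.4% of all genes, and overlapped Tyr-NrasQ61K for each of these genes. On the first principal component, which held 32.1% of the variance, the replicate 2 libraries of both NrasQ61K groups lay at 1 end, far from the rest. Their depths, Tyr-NrasQ61K before MHCII-KO, were estimated at 0.752 and 0.867 of that of WT replicate 1, against 1.33 to 1.69 for 5 other libraries and no clear estimate for Tyr-NrasQ61K replicate 3. Their scores on this component were 102 and 78.6, and WT replicates 1 and 3 lay at the other end, at -74.1 and -73.4. On the second component, with 14.6% of the variance, Tyr-NrasQ61K replicate 3 lay farthest out, at -99.95.

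No feedback or target gene passed the adjusted threshold in either direction. By limma on log2(FPKM + 1), at an adjusted p of at most 0.05 over the 16587 genes tested, 0 of the 8 genes tested were called in MHCII-KO against WT, where 0.145% of all genes were called. The count was also 0 of 8 in Tyr-NrasQ61K against WT (0.235% of all genes), in MHCII-KO against Tyr-NrasQ61K (0.0482%) and in both NrasQ61K groups against WT (0.398%). Spry4 and Etv4 stayed below the filter of 1 FPKM in at least 3 libraries and were tested singly. At an unadjusted p under 0.05, 3 of the 8 were lower in MHCII-KO than in WT (11.5% of all genes) and 0 were higher (3.57% of all genes). In Tyr-NrasQ61K against WT, 2 of the 8 were lower (8.43% of all genes) and 0 were higher (6.79%). In MHCII-KO against Tyr-NrasQ61K 1 was lower (1.28% of all genes), and in both groups against WT 3 were lower (15.2% of all genes). Dusp6 and Spred1 were below the unadjusted threshold in all 3 comparisons with WT, and Etv5 in those that included MHCII-KO. All libraries lay below WT for 4 of the 8 genes in MHCII-KO (23.4% of all genes), for 1 in Tyr-NrasQ61K (10.5%) and for 1 in both groups (8.44%), and above WT for 1 in MHCII-KO (7.97% of all genes). The median log2 fold change of the 8 genes was -0.39 in MHCII-KO against WT and -0.27 in Tyr-NrasQ61K against WT, beside -0.22 and -0.12 over all genes tested. In both NrasQ61K groups against WT it was -0.38, beside -0.16 over all genes tested.

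**Figure D1:**
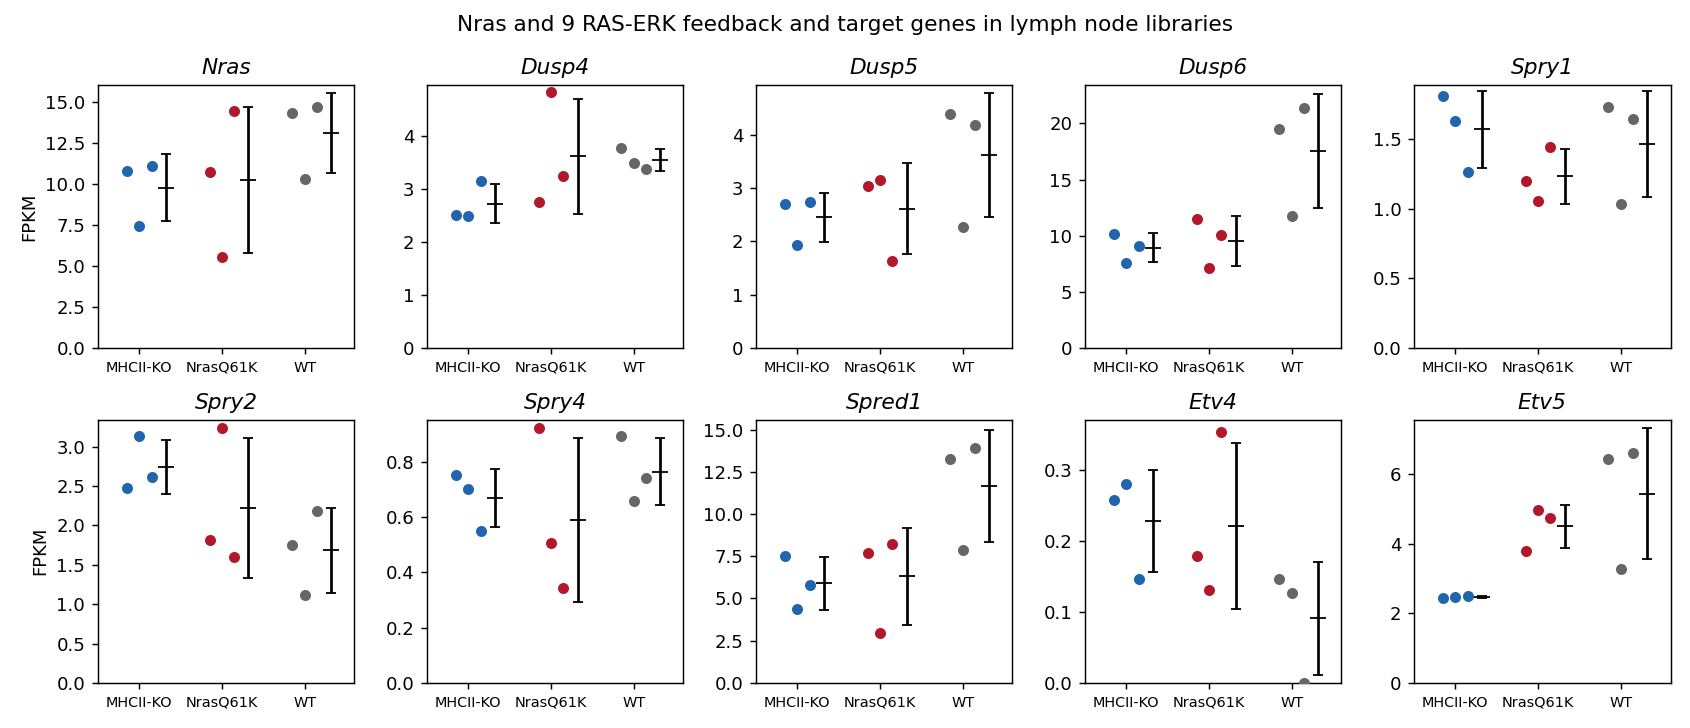
FPKM of Nras and the 9 feedback and target genes in each library (points, replicates 1 to 3 from left to right) with the mean and SD of each group (black; n = 3). Dusp6 was at 7.58 to 10.18 FPKM in MHCII-KO, 7.13 to 11.5 in Tyr-NrasQ61K and 11.77 to 21.4 in WT nodes, and no gene had all 6 NrasQ61K libraries above all WT libraries.

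Nras itself, at chr3:103058285-103067914 on the plus strand of GRCm38 (mm10), encodes the protein that the transgene carries in activated form. Nras was at 10.8, 7.48 and 11.1 FPKM in MHCII-KO, 10.7, 5.55 and 14.4 in Tyr-NrasQ61K, and 14.3, 10.3 and 14.7 in WT libraries. The 3 groups overlapped, and replicate 2 was the lowest library of each group. Mean FPKM was 9.80 ± 2.02 in MHCII-KO, 10.2 ± 4.47 in Tyr-NrasQ61K and 13.1 ± 2.44 in WT (SD, n = 3 each). In both NrasQ61K groups against WT the log2 fold change of Nras was -0.39 (SE 0.29, adjusted p = 0.406 by limma). Its 95% interval, from -1.05 to 0.26, reached a 1.20-fold higher value of FPKM + 1, for FPKM as deposited. The log2 fold change of Nras was -0.17 with median-ratio scaling and -0.22 with quantile normalization, so this limit depends on the scaling. The sources used here do not say whether the transgene carries the mouse or the human coding sequence, so it is unknown whether its RNA was counted on the Nras row. Tyr, whose promoter drives the transgene, was at 0.970 to 1.27 FPKM in MHCII-KO, 1.41 to 1.65 in Tyr-NrasQ61K and 0.595 to 2.04 in WT libraries. Tyr RNA was low everywhere, and WT overlapped both NrasQ61K groups.

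Among the phosphatases of the set, Dusp6, the cytoplasmic ERK phosphatase (chr10:99263231-99267489, plus strand), had the largest log2 fold change against WT. Dusp6 was at 10.18, 7.58 and 9.10 FPKM in MHCII-KO, 11.5, 7.13 and 10.09 in Tyr-NrasQ61K, and 19.5, 11.77 and 21.4 in WT libraries. All 6 NrasQ61K libraries lay below all 3 WT libraries, as for 8.44% of all genes, although Tyr-NrasQ61K replicate 1 was only just below WT replicate 2. Mean Dusp6 in MHCII-KO was 0.510 of the WT mean, and mean Dusp6 in Tyr-NrasQ61K was 0.545 of it. The log2 fold change was -0.87 in MHCII-KO against WT (SE 0.27, unadjusted p = 0.0126, adjusted p = 0.327 by limma). It was -0.79 in Tyr-NrasQ61K against WT (SE 0.27, unadjusted p = 0.0192, adjusted p = 0.302 by limma), so neither difference passed the adjusted threshold. In both NrasQ61K groups against WT it was -0.83, with an adjusted p of 0.172 by limma and a 95% interval that corresponds to 0.386-fold to 0.820-fold. With median-ratio scaling the log2 fold change of Dusp6 in that comparison was -0.60. Between MHCII-KO and Tyr-NrasQ61K the log2 difference of Dusp6 was -0.07, with a 95% interval from -0.70 to 0.55.

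Dusp4 and Dusp5, the phosphatases of nuclear ERK, did not pass the test. Dusp5 was at 2.70, 1.93 and 2.73 FPKM in MHCII-KO, 3.04, 3.16 and 1.64 in Tyr-NrasQ61K, and 4.39, 2.28 and 4.17 in WT libraries. WT replicates 1 and 3 were above every NrasQ61K library and WT replicate 2 was among them. Set against WT, both NrasQ61K groups had a log2 fold change of -0.37 for Dusp5 (95% interval -0.89 to 0.15, adjusted p = 0.338 by limma). Dusp4 was at 2.51, 2.50 and 3.15 FPKM in MHCII-KO, 2.76, 4.84 and 3.25 in Tyr-NrasQ61K, and 3.77, 3.48 and 3.38 in WT libraries. The MHCII-KO libraries lay below WT for Dusp4, the Tyr-NrasQ61K libraries lay on either side of it, and the log2 fold change in both NrasQ61K groups against WT was -0.15 (adjusted p = 0.595 by limma).

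No Sprouty gene passed the test either. Spry2 was at 2.48, 3.14 and 2.62 FPKM in MHCII-KO, 1.82, 3.24 and 1.60 in Tyr-NrasQ61K, and 1.76, 1.11 and 2.19 in WT libraries. The MHCII-KO libraries lay above WT for Spry2, the Tyr-NrasQ61K libraries overlapped WT, and Spry2 had the only positive log2 fold change of the 8 genes in both NrasQ61K groups against WT, at 0.37 (95% interval -0.10 to 0.84, adjusted p = 0.301 by limma). Spry1 was at 1.81, 1.63 and 1.26 FPKM in MHCII-KO, 1.20, 1.06 and 1.44 in Tyr-NrasQ61K, and 1.73, 1.03 and 1.64 in WT libraries. The groups overlapped for Spry1, with a log2 fold change of -0.04 in both NrasQ61K groups against WT (95% interval -0.39 to 0.32). Spry4 was low throughout, at 0.753, 0.704 and 0.551 FPKM in MHCII-KO, 0.922, 0.505 and 0.343 in Tyr-NrasQ61K, and 0.896, 0.658 and 0.743 in WT libraries. The groups overlapped for Spry4 as well, and its smallest p in 4 comparisons was 0.357 by a two-sided exact permutation test.

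Spred1, which joins the RAS inhibitor neurofibromin to the membrane (chr2:117121374-117182279, plus strand), had a pattern like that of Dusp6. Spred1 was at 7.52, 4.37 and 5.81 FPKM in MHCII-KO, 7.71, 2.98 and 8.22 in Tyr-NrasQ61K, and 13.2, 7.85 and 13.9 in WT libraries. The MHCII-KO libraries lay below WT, whereas Tyr-NrasQ61K replicate 3 was above WT replicate 2. The log2 fold change of Spred1 was -0.86 in MHCII-KO against WT (SE 0.37, adjusted p = 0.329 by limma) and -0.85 in Tyr-NrasQ61K against WT (SE 0.37, adjusted p = 0.328 by limma). In both NrasQ61K groups against WT it was -0.86, with an adjusted p of 0.209 by limma and an interval from 0.331-fold to 0.919-fold.

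**Figure D2:**
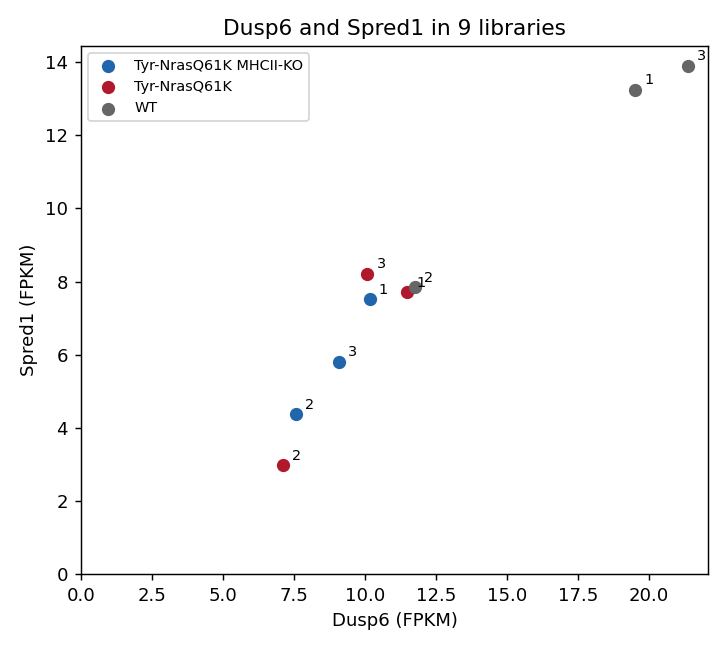
Spred1 against Dusp6, both in FPKM, in the 9 libraries, coloured by group and numbered by replicate. Both genes were highest in WT replicates 1 and 3 and lowest in the replicate 2 libraries of the NrasQ61K groups, and WT replicate 2 (11.77 FPKM Dusp6, 7.85 FPKM Spred1) lay beside the NrasQ61K libraries.

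Of the ETS factors, Etv5 had the largest log2 difference between MHCII-KO and Tyr-NrasQ61K of the 8 genes tested. Etv5 (chr16:22381309-22439719, minus strand) was at 2.44, 2.47 and 2.51 FPKM in MHCII-KO, 3.80, 4.96 and 4.75 in Tyr-NrasQ61K, and 6.44, 3.27 and 6.61 in WT libraries. The MHCII-KO libraries lay close together and below every other library, and the Tyr-NrasQ61K libraries lay between the WT values. The log2 fold change of Etv5 was -0.84 in MHCII-KO against WT (SE 0.24, unadjusted p = 0.00711, adjusted p = 0.301 by limma), and MHCII-KO had 0.455 of the WT mean. In MHCII-KO against Tyr-NrasQ61K it was -0.66 (SE 0.24, unadjusted p = 0.0236, adjusted p = 0.99994 by limma), and 3.07% of all genes had their MHCII-KO libraries below Tyr-NrasQ61K in this way. In Tyr-NrasQ61K against WT it was -0.19 (adjusted p = 0.677 by limma).

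Etv4 was close to the limit of detection. Etv4 was at 0.259, 0.280 and 0.147 FPKM in MHCII-KO, 0.180, 0.132 and 0.354 in Tyr-NrasQ61K, and 0.146, 0.126 and 0 in WT libraries. WT was the lowest group on average, and Tyr-NrasQ61K replicate 2 lay below WT replicate 1. The two-sided exact permutation p of Etv4 was 0.0357 in both NrasQ61K groups against WT and 0.286 after adjustment over the 8 tests of Spry4 and Etv4. In MHCII-KO against WT it was 0.1, the smallest p that 3 against 3 libraries allow.

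**Figure D3:**
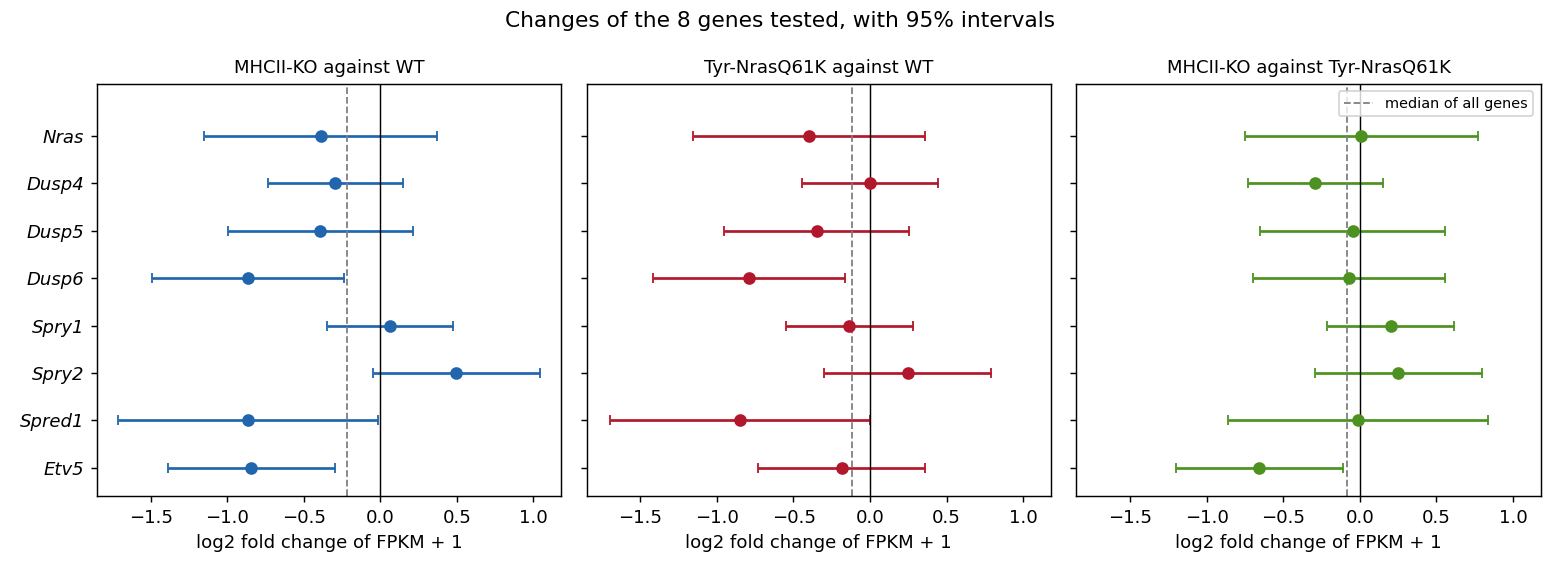
Log2 fold changes of FPKM + 1 of the 8 genes tested with limma's 95% intervals, in MHCII-KO against WT, Tyr-NrasQ61K against WT and MHCII-KO against Tyr-NrasQ61K. The dashed line is the median of all genes tested (-0.22, -0.12 and -0.08 from left to right), and the Dusp6 intervals against WT lay below 0.

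Of all genes tested, 63.5% had a log2 fold change below 0 in both NrasQ61K groups against WT. Relative to the median of all genes in both NrasQ61K groups against WT, the log2 fold change was -0.66 for Dusp6, -0.69 for Spred1, -0.35 for Etv5, -0.23 for Nras and 0.54 for Spry2. Without the replicate 2 libraries of the NrasQ61K groups, the 2 that lay apart at 1 end of the first component, 0 of the 8 genes were called in any comparison. The log2 fold change in both NrasQ61K groups against WT was then -0.69 for Dusp6, -0.58 for Spred1, -0.54 for Etv5 and -0.14 for Nras. Under weights that gave uneven libraries less influence, Dusp6, Spred1, Etv5, Dusp5 and Nras were called lower in both NrasQ61K groups against WT (adjusted p = 0.00338, 0.00505, 0.00311, 0.0218 and 0.0491 by limma in that order). That setting called 7542 of the 16587 genes, 5997 of them lower, so these 5 calls came with calls for a large part of the table. WT replicate 2 had a weight of 0.319, against 2.40 and 2.24 for WT replicates 1 and 3. Tyr-NrasQ61K replicate 1 had 4.15 and MHCII-KO replicate 3 had 5.22, against 0.197 to 1.05 for the other NrasQ61K libraries, so these calls rested mostly on a few libraries.

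**Figure D4:**
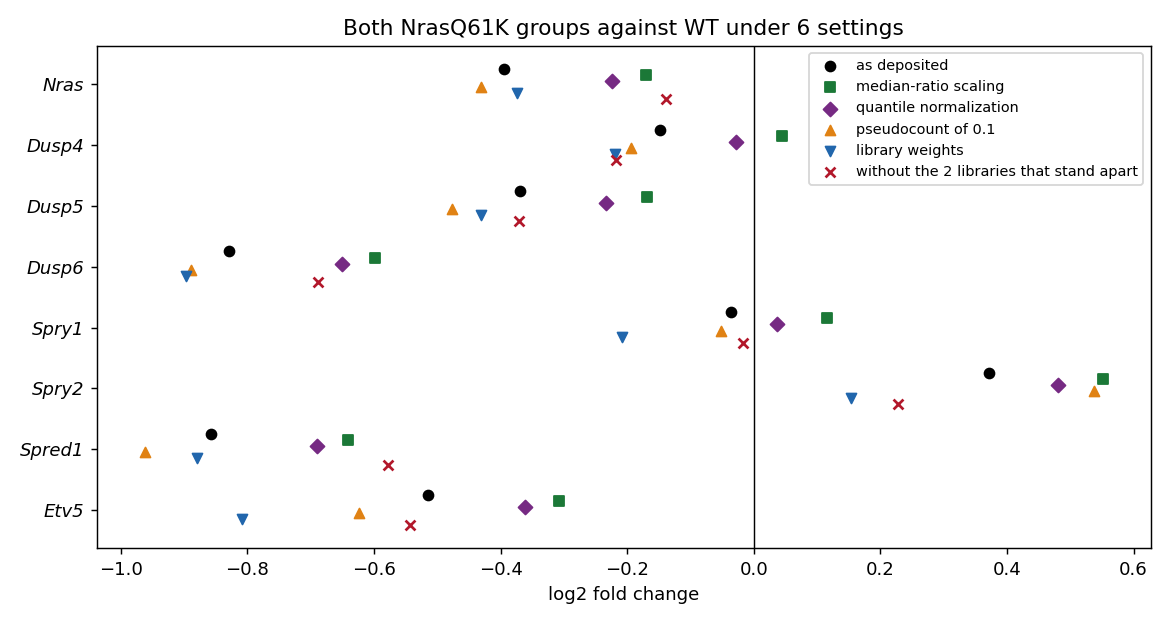
Log2 fold changes in both NrasQ61K groups against WT of the 8 genes tested, under the values as deposited and 5 other settings. Dusp6 and Spred1 stayed below 0 and Spry2 above 0 in all 6, while Dusp4 and Spry1 changed sign with the scaling of the libraries.

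The promoters of 3 of these genes are shown because Dusp6 and Spred1 varied together, and because Dusp5 was the gene with a match to a motif among the 7 whose windows were searched. Each is the 250 bases before the RefSeq start on GRCm38.p6, 5′ to 3′, with matches to the motifs in capitals. RefSeq and GENCODE starts differ for Spred1 and Dusp5. The Spred1 window ends before the GENCODE start of the gene (chr2:117121374), and the Dusp5 window runs past it (chr19:53529109).
Dusp6 promoter, chr10:99262981-99263230, plus strand: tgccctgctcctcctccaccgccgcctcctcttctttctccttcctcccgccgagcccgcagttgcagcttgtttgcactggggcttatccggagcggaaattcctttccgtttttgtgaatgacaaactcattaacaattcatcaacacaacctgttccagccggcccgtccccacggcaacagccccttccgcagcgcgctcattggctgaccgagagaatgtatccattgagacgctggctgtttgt
Spred1 promoter, chr2:117120821-117121070, plus strand: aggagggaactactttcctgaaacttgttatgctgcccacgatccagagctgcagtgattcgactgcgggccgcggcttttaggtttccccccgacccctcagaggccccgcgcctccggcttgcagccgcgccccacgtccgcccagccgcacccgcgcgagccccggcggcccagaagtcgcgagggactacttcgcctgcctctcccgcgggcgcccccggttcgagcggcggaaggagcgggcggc
Dusp5 promoter, chr19:53528895-53529144, plus strand: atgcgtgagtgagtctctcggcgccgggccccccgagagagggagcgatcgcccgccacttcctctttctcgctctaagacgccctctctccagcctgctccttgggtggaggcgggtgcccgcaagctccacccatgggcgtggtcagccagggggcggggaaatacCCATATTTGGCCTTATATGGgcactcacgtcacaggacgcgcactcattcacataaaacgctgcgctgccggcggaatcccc
The motifs were the ETS site CCGGAA, the AP-1 site TGACTCA and the CArG box, the site of serum response factor, each searched on both strands and without overlap between the motifs. The shorter ETS core GGAA was not searched, and its letters do occur in the Dusp6 and Spred1 windows. Spry4 was not looked up. For the other genes RefSeq gave 8 windows for 7, and 0 of these windows held CCGGAA or the AP-1 site. CCGGAA occurred in 12.03% and the AP-1 site in 4.46% of the 32851 windows of this length. The CArG box occurred in 1.47% of all windows, and the Dusp5 window held 2 of them side by side, beginning 82 and 72 bases before the RefSeq start. The CArG box was added to the search after the sequences had been read, and a match describes letters only.

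Within the set, level and variation differed widely. By mean FPKM over the 9 libraries, a scale per transcript length, the order was Dusp6 (12.03), Nras (11.1), Spred1 (7.96), Etv5 (4.14), Dusp4 (3.29), Dusp5 (2.89), Spry2 (2.22), Spry1 (1.42), Spry4 (0.675) and Etv4 (0.180). Neighbours were not always distinct. Dusp6 was above Nras in 6 of 9 libraries and Etv5 above Dusp4 in 5 of 9, whereas Nras was above Spred1 and Spry2 above Spry1 in all 9. Over the 9 libraries, the Pearson r of log2(FPKM + 1) was 0.95 between Dusp6 and Spred1, 0.92 between Nras and Spred1 and 0.77 between Nras and Dusp6, whereas that between Spry2 and Spred1 was -0.62. These values describe libraries that share their group and their depth, and they carry no test.

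The genes whose pattern was most like that of Dusp6 included products of mast cells. Of the genes tested, the 5 with the highest Pearson r to Dusp6 over the 9 libraries were Cpa3, Vamp8, Cma1, Dstn and P2ry12, with r of 0.991 to 0.993. Cpa3, a mast cell carboxypeptidase, was at 2.18 to 5.42 FPKM in MHCII-KO, 1.54 to 7.05 in Tyr-NrasQ61K and 10.8 to 47.4 in WT libraries. Cma1, mast cell chymase, was at 3.45 to 8.66 FPKM in MHCII-KO, 2.46 to 9.24 in Tyr-NrasQ61K and 13.8 to 73.0 in WT libraries. The genes most like Nras were Edf1, Cap1, Tsg101, Acap2 and Ero1lb, with r of 0.990 to 0.993. Cap1, which binds actin, was at 48.3 to 69.6 FPKM in MHCII-KO, 41.1 to 84.6 in Tyr-NrasQ61K and 62.2 to 89.2 in WT libraries. For Spry4, which was not itself tested, the 5 most alike were small nucleolar RNA entries, which were Snord57, Snord49b and 2 entries named SNORD50, and the entry named Gapdh, with r of 0.872 to 0.944.

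Marker lists of other cell types also differed between the NrasQ61K and WT nodes, most of them with more genes below 0 than above 0 on the log2 scale. Of all genes, 63.5% were below 0 in both NrasQ61K groups against WT. The FPKM of 10 endothelial genes summed to 107 to 145 in MHCII-KO, 104 to 195 in Tyr-NrasQ61K and 136 to 282 in WT libraries, with all 10 log2 fold changes below 0 in both NrasQ61K groups against WT and 0 called. Those of 8 adipocyte genes summed to 72.6 to 157 in MHCII-KO, 53.9 to 203 in Tyr-NrasQ61K and 253 to 419 in WT libraries, without overlap with WT, and all 8 log2 fold changes in both NrasQ61K groups against WT were below 0. Those of 12 macrophage genes summed to 253 to 390 in MHCII-KO, 224 to 343 in Tyr-NrasQ61K and 255 to 624 in WT libraries, and 10 dendritic cell genes to 67.8 to 91.1, 58.2 to 119 and 118 to 174 in the same groups. The macrophage list was divided, with 5 of the 11 genes tested above 0 and 6 below, whereas 9 of the 10 dendritic cell genes were below 0. At an adjusted p of at most 0.05 by limma, which 0.398% of all genes passed, the adipocyte genes Plin1 and Lep and the dendritic cell gene Ccl17 were called lower (log2 fold change -1.95, -2.80 and -2.33). Trem2, a receptor of phagocytes in the macrophage list, was called higher, with a log2 fold change of 3.42. None of the endothelial, adipocyte, macrophage or dendritic cell genes was at 0 in all WT libraries. In whole nodes, fewer cells of a type and less RNA per cell cannot be told apart, and the part of these cell types in the values of Dusp6 and Spred1 was not tested.

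Further along the pathway, 0 of 62 other genes tested were called in any comparison. These were 24 RAS proteins and RAS regulators, 14 RAF, MEK and ERK kinases and scaffolds, 10 other feedback inhibitors and 14 other ERK-induced genes. In both NrasQ61K groups against WT, 3 genes had an unadjusted p under 0.05 and were higher (6.52% of all genes), and 7 were lower (15.2% of all genes). Among the regulators, Grb2, the adaptor that brings the RAS activator SOS to receptors, was at 28.4, 31.9 and 40.8 FPKM in MHCII-KO, 31.7, 36.5 and 53.7 in Tyr-NrasQ61K, and 18.8, 17.1 and 17.7 in WT libraries. Every NrasQ61K library was above every WT library for Grb2, as for 4.52% of all genes, and its log2 fold change in both groups against WT was 0.99 (SE 0.22, unadjusted p = 0.00194, adjusted p = 0.122 by limma). Shoc2, a scaffold that helps to activate RAF, was at 5.70, 2.94 and 5.62 FPKM in MHCII-KO, 5.78, 1.99 and 6.81 in Tyr-NrasQ61K, and 11.3, 7.14 and 9.65 in WT libraries. Every NrasQ61K library was below every WT library for Shoc2, as for 8.44% of all genes, with a log2 fold change of -0.90 (adjusted p = 0.210 by limma). Rasgrp2, a RAS family exchange factor of blood cells and the most abundant gene of this list, was at 42.3 to 63.6 FPKM in MHCII-KO, 44.1 to 87.5 in Tyr-NrasQ61K and 45.0 to 46.1 in WT libraries.

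The kinases and scaffolds had a median log2 fold change of 0.01 in both NrasQ61K groups against WT, beside -0.16 for all genes, with 8 of 14 above 0 and 6 below, and none had an unadjusted p under 0.05 in any comparison. The smallest p of this list belonged to Pebp1, an inhibitor of RAF, with a log2 fold change of -0.55 (adjusted p = 0.251 by limma).

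The other feedback inhibitors lay lower than the kinases. Of 10 tested, 9 had log2 fold changes below 0 in both NrasQ61K groups against WT, with a median of -0.36 beside -0.16 for all genes, of which 63.5% were below 0. Errfi1, an inhibitor of the EGF receptor, was at 4.84, 2.70 and 3.72 FPKM in MHCII-KO, 5.49, 1.44 and 3.16 in Tyr-NrasQ61K, and 11.7, 5.75 and 12.3 in WT libraries. All NrasQ61K libraries were below WT for Errfi1, as for 8.44% of all genes, with a log2 fold change of -1.26 (SE 0.35, adjusted p = 0.168 by limma). Dusp10, a phosphatase of stress kinases, was at 1.53 to 1.82 FPKM in MHCII-KO, 1.92 to 2.61 in Tyr-NrasQ61K and 2.95 to 3.22 in WT libraries, and Lrig1, a negative regulator of ERBB receptors, was at 2.97 to 4.18, 2.75 to 4.22 and 4.52 to 6.89 FPKM in the same groups. Both lay below WT in all NrasQ61K libraries (8.44% of all genes), with adjusted p-values of 0.170 for Dusp10 and 0.191 for Lrig1 by limma. Dusp1, an immediate-early phosphatase, was at 3.26 to 4.26 FPKM in MHCII-KO, 1.56 to 5.04 in Tyr-NrasQ61K and 4.64 to 8.51 in WT libraries (adjusted p = 0.220 by limma). Spry3, a further Sprouty gene, was listed at 0 in every library.

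The other ERK-induced genes split evenly, with 7 of 14 above 0 and 7 below and a median log2 fold change of -0.0050 in both NrasQ61K groups against WT. Myc, a transcription factor of cell growth, was at 4.999, 6.51 and 7.90 FPKM in MHCII-KO, 5.12, 13.8 and 7.79 in Tyr-NrasQ61K, and 4.08, 3.85 and 3.60 in WT libraries. Every NrasQ61K library was above every WT library for Myc, as for 4.52% of all genes, with a log2 fold change of 0.77 (SE 0.27, adjusted p = 0.203 by limma). Egr3, an immediate-early transcription factor, was at 1.80, 3.28 and 2.78 FPKM in MHCII-KO, 3.22, 3.95 and 2.9996 in Tyr-NrasQ61K, and 1.95, 1.66 and 1.62 in WT libraries. Tyr-NrasQ61K lay above WT for Egr3 while MHCII-KO replicate 1 overlapped it, with a log2 fold change of 0.53 in both groups against WT (adjusted p = 0.193 by limma). Ccnd1, which encodes cyclin D1 and was the most abundant of the list, was at 10.02 to 14.4 FPKM in MHCII-KO, 12.6 to 17.1 in Tyr-NrasQ61K and 12.6 to 25.1 in WT libraries, with an adjusted p of 0.292 by limma.

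**Figure D5:**
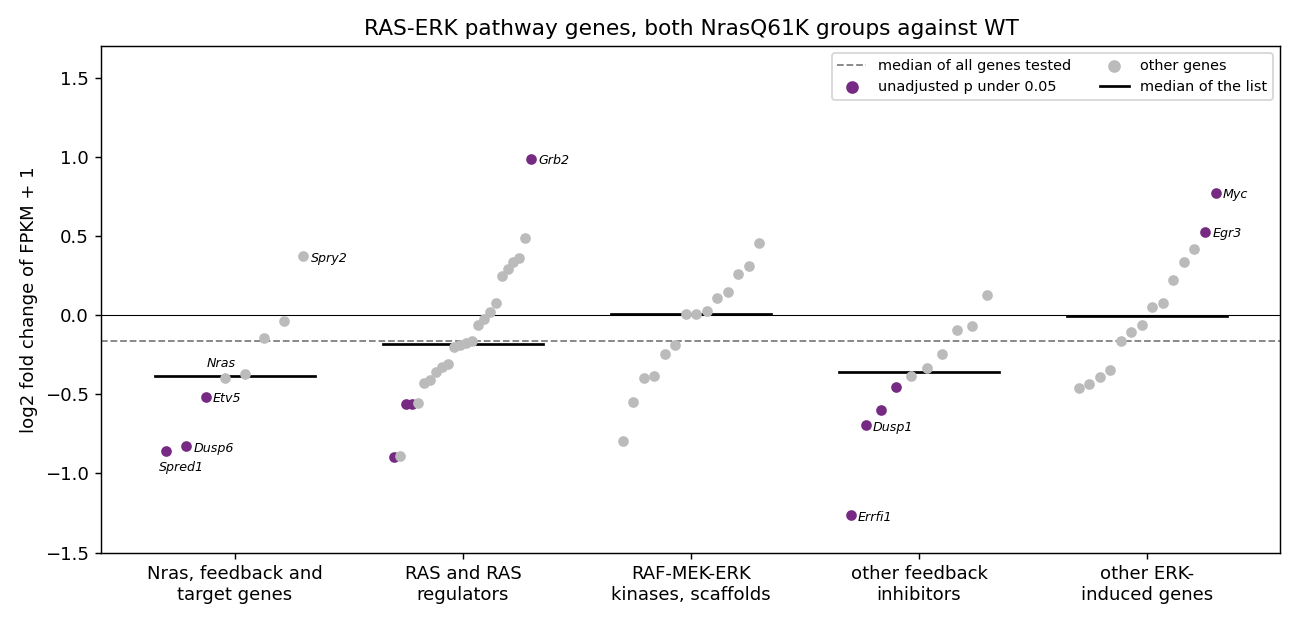
Log2 fold change of FPKM + 1 in both NrasQ61K groups against WT of each gene tested (points) in the set with Nras and in 4 lists of RAS-ERK pathway genes, with the median of each list (bar) and of all genes (dashed). Purple points have an unadjusted p under 0.05 by limma, and none passed adjustment over the 16587 genes.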

How the data were processed

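RNA-seq of mouse lymph nodes gave 9 libraries in 3 groups. The authors deposited 1 table of FPKM per gene from Cufflinks. The submitters' processing notes name TopHat, Cufflinks and Cuffdiff on mm10, with versions and annotation not given in the sources used here. The deposited tables of the authors' own comparisons hold fold changes and p-values and were not used. FPKM carry no read counts, so depth was estimated only relative to WT replicate 1, from the most frequent ratio of low values.

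Of 37819 entries, 18 with several values per library were left out. Genes that reached 1 FPKM in 3 or more libraries (16587) were fitted as log2(FPKM + 1) by limma 3.58.1 in R 4.3.3, with 3 group means, a mean-variance trend and Benjamini-Hochberg adjustment over all genes tested. A fold change on this scale understates that of low genes. Genes below the filter had two-sided exact permutation tests. Coordinates came from GENCODE M21 and promoters from RefSeq. Figures used Python 3.11.15, numpy 2.4.6 and matplotlib 3.10.9. The fit was tested on simulated data.

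The genes of the set and all lists were chosen with earlier results of these data known. The text names every gene of the set, markers of melanocytes and MHC class II, up to 4 genes of smallest p and the most abundant gene of each pathway list, and the 5 genes most like Nras, Dusp6 and Spry4. A result that this rule would have included is not reported here. Alternatives were another pseudocount, no filter, median-ratio and quantile scaling, library weights, a replicate block, each library and the 2 uneven libraries left out, 2 groups alone and a term, between the NrasQ61K groups only, for the run of identifier numbers in the labels. Protein-coding genes only was chosen after seeing the data.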

Additional observations from a re-analysis of the deposited data

How the results depend on the processing

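Of the 8 genes tested, 0 were called in any comparison under 17 of 19 alternatives, and 0 were called higher under any. Library weights called 4 lower in MHCII-KO against WT, 3 in Tyr-NrasQ61K against WT and 5 in both groups against WT. Dusp6 and Spred1 were below 0 in every alternative of the 3 comparisons with WT. Over all genes, the counts called in MHCII-KO against WT, Tyr-NrasQ61K against WT, MHCII-KO against Tyr-NrasQ61K and both groups against WT were 24, 39, 8 and 66. They were 7407, 5076, 24 and 7542 with library weights, 37, 66, 10 and 163 with median-ratio scaling and 108, 105, 0 and 273 with protein-coding genes only. Quantile normalization gave 173 in both groups against WT, 71 higher and 102 lower, beside 34 higher and 32 lower as deposited. For MHCII-KO and WT alone the count was 38, for a pseudocount of 0.1 it was 24 in Tyr-NrasQ61K against WT, and without the 2 libraries that stood apart it was 2 in MHCII-KO against Tyr-NrasQ61K. Leaving out 1 library gave 5 to 32, 9 to 36, 2 to 10 and 21 to 59 in the 4 comparisons, lowest without WT replicate 3 against WT and without Tyr-NrasQ61K replicate 3 between the NrasQ61K groups. With the run of identifiers as a term, which could be fitted between the NrasQ61K groups only, 0 of the 8 genes were called. The causes were not tested.

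The groups share replicate numbers, and whether these numbers pair the libraries is not settled by the values. Deviations of same-numbered libraries had correlations from -0.04 to 0.33, over 0.1 in 3 of 9 pairs. Those of libraries with different numbers ran from -0.27 to 0.16. In both other groups, 4 of 9 libraries correlated best with their own number. A shared source of variation by number was therefore not excluded, and the main fit had no replicate term. A replicate block gave 777, 894, 7 and 2675 calls in the 4 comparisons and called Dusp6 lower in all 3 comparisons with WT (adjusted p = 0.0458, 0.0475 and 0.0241 by limma) and Spred1 in both groups against WT (adjusted p = 0.0294 by limma), so 1, 1, 0 and 2 of the 8 genes.

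Signs changed for some differences, as large as deposited as 0.25 for Spry2 in Tyr-NrasQ61K against WT and -0.29 for Dusp4 in MHCII-KO against Tyr-NrasQ61K. Single libraries moved some values further than this. With median-ratio scaling the log2 fold change was 0.16 for Dusp4 in Tyr-NrasQ61K against WT, 0.044 for Dusp4 and 0.12 for Spry1 in both groups against WT, and 0.00044 for Dusp5, 0.013 for Dusp6 and 0.079 for Spred1 in MHCII-KO against Tyr-NrasQ61K. With quantile normalization it was 0.068 for Dusp4 in Tyr-NrasQ61K against WT, 0.036 for Spry1 in both groups against WT, and 0.036 for Dusp5, 0.067 for Dusp6 and 0.12 for Spred1 in MHCII-KO against Tyr-NrasQ61K. With library weights it was -0.021 for Spry2 in Tyr-NrasQ61K against WT, -0.16 for Spry1 in MHCII-KO against WT and 0.049 for Dusp4 in MHCII-KO against Tyr-NrasQ61K. In that comparison it was 0.0035 for Spred1 with a pseudocount of 0.1, and -0.17 for Nras and 0.19 for Dusp5 without the 2 libraries that stood apart. Leaving out 1 library, it ran from -0.18 to 0.13 for Dusp4 in Tyr-NrasQ61K against WT, from -0.17 to 0.043 for Spry1 in both groups against WT, from -0.069 to 0.15 for Spry1 in MHCII-KO against WT, from -0.26 to 0.071 for Dusp5, from -0.25 to 0.059 for Dusp6, from -0.40 to 0.20 for Spred1 and from -0.34 to 0.28 for Nras in MHCII-KO against Tyr-NrasQ61K.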

Other observations

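Some entries outside the set were uneven within a group. Braf, the RAF kinase most often mutated in nevi, was at 7.56, 4.71 and 6.12 FPKM in MHCII-KO, 7.11, 2.50 and 31.9 in Tyr-NrasQ61K, and 7.35, 7.53 and 6.90 in WT libraries, so that 1 library, Tyr-NrasQ61K replicate 3, was high. Siglec1, a receptor of lymph node sinus macrophages, was at 17.9, 8.63 and 18.6 FPKM in MHCII-KO, 17.5, 13.3 and 12.2 in Tyr-NrasQ61K, and 37.3, 0 and 0 in WT libraries, so that it was listed at 0 in WT replicates 2 and 3. Etv1, an ETS factor related to Etv4 and Etv5, was at 0.481, 0.291 and 0.234 FPKM in MHCII-KO, 0.416, 0.670 and 0.318 in Tyr-NrasQ61K, and 0.927, 0.496 and 1.17 in WT libraries, below the filter of the test. These genes were singled out after their values were seen.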
